A study of Mus musculus with 6 samples.

Results

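The 40 genes described here encode enzymes that cut the extracellular matrix, and the inhibitors of those enzymes. They were picked by gene name from the 20645 rows of 1 deposited gene table: 17 matrix metalloproteinase (MMP) genes, 14 ADAMTS genes, 5 ADAMTS-like genes and 4 TIMP genes. The name rule itself uses no values, but the members were chosen with earlier results of these data known. Of these, 31 had enough counts to be tested between the groups: 12 MMP, 10 ADAMTS, 5 ADAMTS-like and 4 TIMP genes. RNA was sequenced from 6 libraries of lung mesenchymal stromal cells (MSC) of C57BL/6 mice. There were 3 libraries of mG cells, sorted for membrane GFP, and 3 of mT cells, sorted for membrane TdTomato. Both groups carry the genotype Tbx4-rtTA/TetO-Cre/mT-mG, and both received doxycycline between embryonic day 6.5 and postnatal day 1. With this set of alleles, doxycycline switches on Cre in cells where the Tbx4 driver is active, and Cre turns the membrane reporter from TdTomato to GFP in those cells and their descendants. The mT cells are therefore the cells of the same genotype and treatment that had not recombined the reporter, whatever their type, and not cells of an untreated or driver-free mouse. The labels do not give the age at collection, whether the sorted cells were grown before RNA extraction, or whether libraries of 1 group came from separate animals. All p-values below therefore rest on how much these libraries differ among themselves, a spread that may be technical.

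MMPs are zinc endopeptidases that are made as inactive precursors and that cut collagens, gelatins, proteoglycans and other matrix proteins once their propeptide is removed. ADAMTS enzymes are secreted relatives that bind the matrix and process proteoglycans such as versican and aggrecan, procollagens or microfibril components, while ADAMTS-like proteins have the binding domains without the protease domain. TIMPs (tissue inhibitors of metalloproteinases) bind the active site of MMPs, and TIMP3 also inhibits several ADAMTS and ADAM enzymes. In the lung, stromal cells are among the sources of these proteins, which shape the collagen and elastic fibre network during the formation of the airspaces.

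Total counts per library were 16853561 to 19429138, so that 3 counts correspond to 0.154 to 0.178 CPM on these totals. All other CPM values (counts scaled to library size) use the TMM-adjusted total of each library. The MSC label was checked on 7 stromal genes, all of them with a row, which summed to 7871 to 22403 CPM in mG libraries and 14252 to 18328 CPM in mT libraries. Col1a2 alone had 4878 to 11657 CPM in mG and 6710 to 8718 CPM in mT. Dcn and Lum were low. Dcn had 13.6 to 94.1 CPM in mG and 4.72 to 66.5 CPM in mT, and Lum had 1.06 to 25.5 CPM in mG and 0 to 1.32 CPM in mT. None of 6 epithelial markers had a row in the table used here. Leukocyte markers (7 of 8 with a row) summed to 9.04 to 15.9 CPM in mG and 11.8 to 19 CPM in mT, and the leukocyte-defining Ptprc stayed at 0.0589 to 0.327 CPM in mG and 0 to 0.18 CPM in mT. Single genes in this sum went both ways. Csf1r (6.37 to 9.2 against 0.897 to 2.1 CPM) and Cd68 (0.762 to 1.5 against 0.419 to 0.506 CPM) were higher in every mG library. Lyz2 was lower, at 1.31 to 5.65 CPM in mG and 9.11 to 15.7 CPM in mT. None of these 3 passed the test described below. Endothelial markers summed to 6.43, 1.54 and 3.53 CPM in mG replicates 1 to 3 and 17.7, 0.419 and 5.99 CPM in mT replicates 1 to 3. In mT replicate 1, Pecam1 had 7.03 CPM and Cdh5 6.78 CPM. They had 0 and 0 CPM in mT replicate 2, and 1.68 and 0.659 CPM in mT replicate 3. In mG, Pecam1 had at most 0.14 CPM and Cdh5 had 0 CPM. The mG libraries were less alike: mG replicate 2 had a summed cartilage marker level of 5041.5 CPM, with 2710.3 CPM for Col2a1, against 1628 and 1882 CPM in mG replicates 1 and 3 and 403 to 918 CPM in mT (7 of 8 markers with a row, 6 of them highest in mG replicate 2). Outside mG replicate 2 these sums were mostly Col11a1, at 1615, 1431 and 1862 CPM in mG replicates 1 to 3 and 381 to 844 CPM in mT. Col2a1 had 0.708 and 8.65 CPM in mG replicates 1 and 3, and 1.08 to 28.6 CPM in mT. Sox9 had 8.11, 145 and 8.18 CPM in mG and 0.239 to 2.51 CPM in mT. Matn3 had 3.54, 4.2 and 1.77 CPM in mG and 0.0598 to 0.419 CPM in mT. Like Col11a1, both were higher in every mG library than in any mT library. Comp was not, at 0.327 and 1.35 CPM in mG replicates 1 and 3 and 3.59 to 72.3 CPM in mT. None of the 5 tested cartilage markers passed the test described below. Proliferation markers summed to 850 CPM in mG replicate 1, against 309 and 199 CPM in the other mG libraries and 60.1 to 244 CPM in mT, with 5 of 5 genes highest in mG replicate 1. Smooth muscle markers (6 of 6 with a row) summed to 14904 CPM in mG replicate 1, 2004 CPM in mG replicate 2 and 5394 CPM in mG replicate 3, against 7142 to 10968 CPM in mT, with 3 of the 6 genes highest in mG replicate 1. Mesothelial markers (2 of 4 with a row) summed to 58 CPM in mG replicate 3, against 7.52 and 4.3 CPM in mG replicates 1 and 2 and 5.15 to 10.8 CPM in mT. The part of these marker differences in the results below was not tested. In bulk RNA, fewer cells of a type and less RNA per cell cannot be told apart.

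No member of the 4 families passed the test between mG and mT cells. Adjusted p-values are from edgeR's quasi-likelihood test with Benjamini-Hochberg adjustment over 13566 genes and a threshold of 0.05, unless another tool is named. In that test 0 of the 31 tested members were called, beside 123 genes (0.907%) of the whole table, 0.199% higher and 0.708% lower in mG. At an unadjusted p under 0.05 there were 11 members (35.5%), beside 1978 genes (14.6%): Adamts1, Adamts5, Adamts6, Adamts9, Adamts10, Adamts15, Adamtsl1, Mmp11, Mmp16, Mmp28 and Timp1. DESeq2 called 4 members, with 5.95% of all its genes called, and edgeR's likelihood-ratio test, which allows less for uncertainty in the spread, called 4 with 5.65% of all genes called. Both tools called Adamts1, Adamts15 and Adamtsl1 as higher in mG and Mmp11 as lower. With the replicate number as a block, edgeR's quasi-likelihood test again called 0 members, beside 0.796% of all genes. It also called none with RLE scaling (0.855% of all genes), with upper-quartile scaling (0.877%), with all 40 members tested and no filter on low counts (0.654%), or with a filter on CPM that left 29 members (0.98%).

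The count of calls depended on single libraries. Without mG replicate 2, 5 members passed (2.61% of all genes): Adamts9, Adamts15 and Adamtsl1 were higher in mG, and Mmp2 and Mmp28 lower. Without mG replicate 1, Adamts6 passed as lower in mG (0.507% of all genes), and without any other single library no member passed. In those fits 0.227% of all genes were called without mG replicate 3, and 0.2%, 0.177% and 0.142% without mT replicates 1, 2 and 3. For the whole table, 71, 362 and 32 genes were called without mG replicates 1, 2 and 3, and 28, 25 and 20 without mT replicates 1, 2 and 3. With both replicate 2 libraries left out, no member and 46 genes (0.338%) were called.

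The groups did not overlap for 10 of the 31 tested members (32.3%), beside 20.8% of all tested genes. Adamts1, Adamts9, Adamts15, Adamtsl1, Mmp16 and Timp1 were higher in every mG library than in any mT library (6 members, beside 9.94% of all genes), and Adamts6, Adamts12, Mmp11 and Mmp28 were lower (4 members, beside 10.9%). Adamts15, with 1, 0 and 0 counts in mT, passed the filter on low counts only through its mG libraries. Its being tested and its direction are therefore not independent, here and in the counts of calls above. The fitted log2 fold change, mG over mT, was above 0 for 21 members (67.7%), beside 53.1% of all genes. The median log2 fold change was 0.29 over the tested members and 0.02 over all tested genes. In absolute size the median was 0.92 over the members and 0.24 over all genes. By family, 7 of 12 MMP, 6 of 10 ADAMTS, 4 of 5 ADAMTS-like and 4 of 4 TIMP genes had values above 0.

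**Figure D1:**
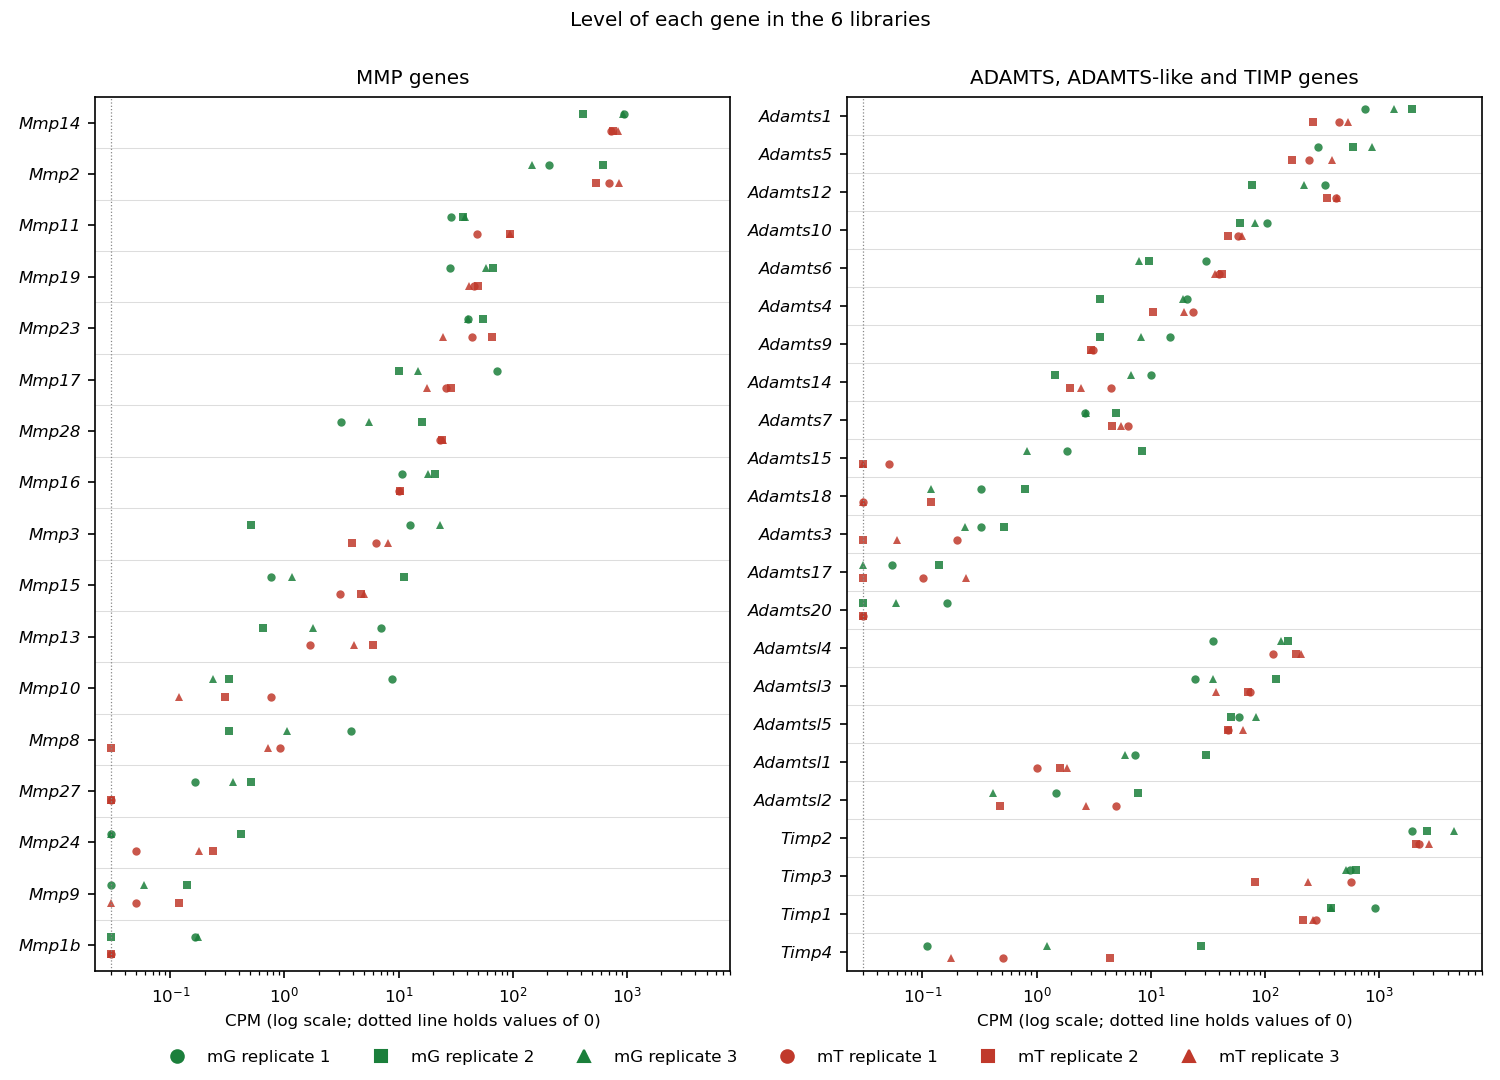
CPM of each of the 40 genes (log scale) in the 3 mG libraries (green, upper row of each gene) and the 3 mT libraries (red, lower row), with a marker shape per replicate and values of 0 placed on the dotted line. Levels span from Timp2 at 1941 to 4584.8 CPM in mG cells down to genes with a handful of counts, and mT points lie closer together than mG points for genes such as Mmp14, Mmp16, Mmp28 and Adamts9.

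Mmp14 and Mmp2 carried most of the MMP RNA in both groups. Mmp14 encodes the membrane-anchored MT1-MMP, a cell-surface collagenase that also activates the MMP2 precursor. Mmp14 (chromosome 14) had 945, 410 and 935 CPM in mG replicates 1 to 3, against 721, 752 and 830 CPM in mT replicates 1 to 3. The mG libraries lay on both sides of the mT libraries, with replicate 2 alone below them. Its means were 763 ± 306 CPM in mG and 767 ± 56.4 CPM in mT (SD, n = 3 each), and its log2 fold change was −0.01 ± 0.34 (SE; adjusted p = 0.996), or 0.002 with RLE scaling. Mmp2 (chromosome 8) encodes gelatinase A, which cuts denatured collagen and type IV collagen, and had 209, 625 and 149 CPM in mG cells, against 699, 535 and 859 CPM in mT cells. Replicates 1 and 3 of mG were below every mT library, and mG replicate 2 was within the mT range. The fit gave a log2 fold change of −1.09 ± 0.55 (adjusted p = 0.429), and −1.97 with an adjusted p of 0.0348 without mG replicate 2.

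Per kilobase of exon, the only scale on which levels of different genes are compared here, Mmp14 made up 55.5%, 21.4% and 58.2% of the summed MMP level in mG replicates 1 to 3, against 30.7%, 33.3% and 29.8% in mT. Mmp2 made up 21.7%, 57.7% and 16.4% in mG, against 52.6%, 41.9% and 54.4% in mT. Mmp14 was therefore ahead of Mmp2 in mG replicates 1 and 3, and Mmp2 was ahead in mG replicate 2 and in all 3 mT libraries. All other MMP genes had mean shares of at most 6.62% in mG and 6.94% in mT.

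Mmp11, Mmp23, Mmp19 and Mmp17 were the other MMP genes with a mean of at least 20 CPM. Mmp11 (chromosome 10), or stromelysin 3, is activated inside the cell by furin-like proteases. It had 28.6, 36.9 and 38.6 CPM in mG cells, against 49.2, 94.7 and 95.3 CPM in mT cells. Every mG library was below every mT library. The log2 fold change of Mmp11 was −1.20 ± 0.28 with an adjusted p of 0.133, and 0.067 with the replicate block, while DESeq2 gave an adjusted p of 0.00782. Across the fits that left out 1 library its adjusted p was 0.0595 to 0.424, so none of them passed. The gene shares 155 exon bases with Chchd10 on the opposite strand, which had at most 14 counts in any library. Mmp23, a membrane-anchored MMP without the hemopexin domain, had 40.6, 54.8 and 41 CPM in mG and 43.7, 66.4 and 24.5 CPM in mT. The mG values lay inside the mT range (log2 fold change 0.02 ± 0.35, adjusted p = 0.989). Mmp19, a secreted MMP made in many tissues, had 28.3, 67.6 and 58.9 CPM in mG and 46, 49.3 and 41.2 CPM in mT. Here mG replicate 1 was the lowest of the 6 libraries and the other mG libraries the highest (0.18 ± 0.31, adjusted p = 0.874). Mmp19 shares 789 exon bases (22.3%) with Tmem198b on the opposite strand, which had 289, 285 and 293 counts in mG and 294, 287 and 229 in mT. Mmp17 encodes the GPI-anchored MT4-MMP and had 72.2, 10.1 and 14.8 CPM in mG and 25.9, 28.9 and 17.9 CPM in mT. Replicate 1 of mG was above, and the other mG libraries below, all mT libraries (0.42 ± 0.72, adjusted p = 0.876).

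Less abundant membrane-type and other MMP genes differed in how even they were. Mmp28, or epilysin, had 3.1, 16 and 5.53 CPM in mG cells, against 23.2, 24.1 and 24.3 CPM in mT cells. All mG libraries were below the mT libraries, which lay close together. The log2 fold change was −1.53 ± 0.57 (adjusted p = 0.294), and −2.48 with an adjusted p of 0.0237 without mG replicate 2. Mmp28 shares 466 exon bases (12.0%) with 1700020L24Rik on the opposite strand. That gene had 11, 57 and 19 counts in mG and 61, 100 and 93 counts in mT. In these unstranded libraries, reads of the shared stretch cannot be assigned to either gene. Mmp16, which encodes MT3-MMP, had 10.8, 20.9 and 18 CPM in mG and 10.2, 10.3 and 10.4 CPM in mT. Its groups were separate but close at mG replicate 1 (0.69 ± 0.27, adjusted p = 0.317). Mmp15, encoding MT2-MMP, had 0.762, 11.2 and 1.18 CPM in mG and 3.09, 4.72 and 5.03 CPM in mT, with mG replicate 2 above and the other mG libraries below all mT libraries. Of the genes below the test's filter, Mmp24 (MT5-MMP) had 0, 9 and 0 counts in mG and 1, 4 and 3 in mT, and shares 637 exon bases with BC029722 on the opposite strand (489 to 928 counts per library). Mmp9 (gelatinase B) had 0, 3 and 1 counts in mG and 1, 2 and 0 in mT. At 4 counts in mG and 3 in mT, the Mmp9 ratio of 1.26 had an exact 95% counting interval of 0.213 to 8.59, so no difference was detectable at this depth. Mmp1a, Mmp7, Mmp12, Mmp20, Mmp21 and Mmp25 had no row in the table used here.

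Collagenase and stromelysin genes lie side by side on mouse chromosome 9, and 6 members fall in this cluster: Mmp13, Mmp1b, Mmp3, Mmp10, Mmp8 and Mmp27 (chr9:7272514-7581885, GRCm38, GENCODE M21). In many cell types genes of this cluster respond to the AP-1 transcription factor. The promoters of Mmp13, Mmp3, Mmp10 and Mmp8 are shown because they are the cluster's tested or most counted genes. Each sequence is the 150 bases before the gene's start in RefSeq (GRCm38.p6), 5′ to 3′, with the AP-1 motif TGANTCA in capitals where it occurs.
Mmp13 (chr9:7272364-7272513, + strand): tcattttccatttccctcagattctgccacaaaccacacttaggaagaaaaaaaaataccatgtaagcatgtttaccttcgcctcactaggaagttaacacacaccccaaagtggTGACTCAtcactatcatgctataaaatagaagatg
Mmp3 (chr9:7445672-7445821, + strand): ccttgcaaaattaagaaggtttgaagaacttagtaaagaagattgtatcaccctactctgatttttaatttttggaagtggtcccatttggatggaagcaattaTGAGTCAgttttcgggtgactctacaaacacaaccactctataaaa
Mmp10 (chr9:7502192-7502341, + strand): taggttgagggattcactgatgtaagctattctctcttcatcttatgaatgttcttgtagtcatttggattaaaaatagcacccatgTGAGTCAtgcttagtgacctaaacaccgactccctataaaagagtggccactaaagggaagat
Mmp8 (chr9:7558279-7558428, + strand): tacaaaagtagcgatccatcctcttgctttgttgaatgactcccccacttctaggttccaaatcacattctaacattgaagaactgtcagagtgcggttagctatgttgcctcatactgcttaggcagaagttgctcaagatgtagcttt
The motif begins 35 bases before the start of Mmp13, 46 before that of Mmp3 and 63 before that of Mmp10. It is not in the printed bases of Mmp8. Searched on both strands in windows of 300 bases (250 before to 50 after the start), the motif was in 4 of the 6 cluster members (Mmp1b, Mmp3, Mmp10 and Mmp13), in 0 of the 22 other members with a promoter in the RefSeq table, and in 7.81% of all 32851 windows. These matches are a description of the letters and say nothing of binding.

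The chromosome 9 cluster was uneven within the mG group. Its 6 genes summed to 32.5, 2.34 and 26.7 CPM in mG replicates 1 to 3, against 9.66, 10.2 and 13 CPM in mT. Replicates 1 and 3 of mG were above all mT libraries, and replicate 2 was below them. Mmp3 (stromelysin 1, which cuts proteoglycans and activates other MMPs) had 12.5, 0.514 and 23.1 CPM in mG and 6.32, 3.95 and 8.08 CPM in mT (log2 fold change 0.97 ± 1.05, adjusted p = 0.763). It thus followed the sum, with mG replicate 2 lowest. Mmp13 (collagenase 3) had 7.03, 0.654 and 1.77 CPM in mG and 1.67, 5.98 and 4.07 CPM in mT. Mmp8 (collagenase 2, known from neutrophils) had 3.81, 0.327 and 1.06 CPM in mG and 0.911, 0 and 0.718 CPM in mT. For both, mG replicate 1 was the highest of the 6 libraries. Mmp10 (stromelysin 2) had 162, 7 and 4 counts in mG and 15, 5 and 2 in mT, so nearly all of its counts came from mG replicate 1. Mmp27 had 3, 11 and 6 counts in mG and 0 in every mT library. With the mT group set to 3 counts over its 3 libraries, the ratio of mG to mT was 6.29. That value takes the mG counts as exact and leaves out their counting error and their spread between libraries. Mmp1b had 3, 0 and 3 counts in mG and 0 in every mT library. Mmp10, Mmp27 and Mmp1b were below the count filter. With no filter their adjusted p-values were 0.454 for Mmp10, 0.194 for Mmp27 and 0.454 for Mmp1b.

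**Figure D2:**
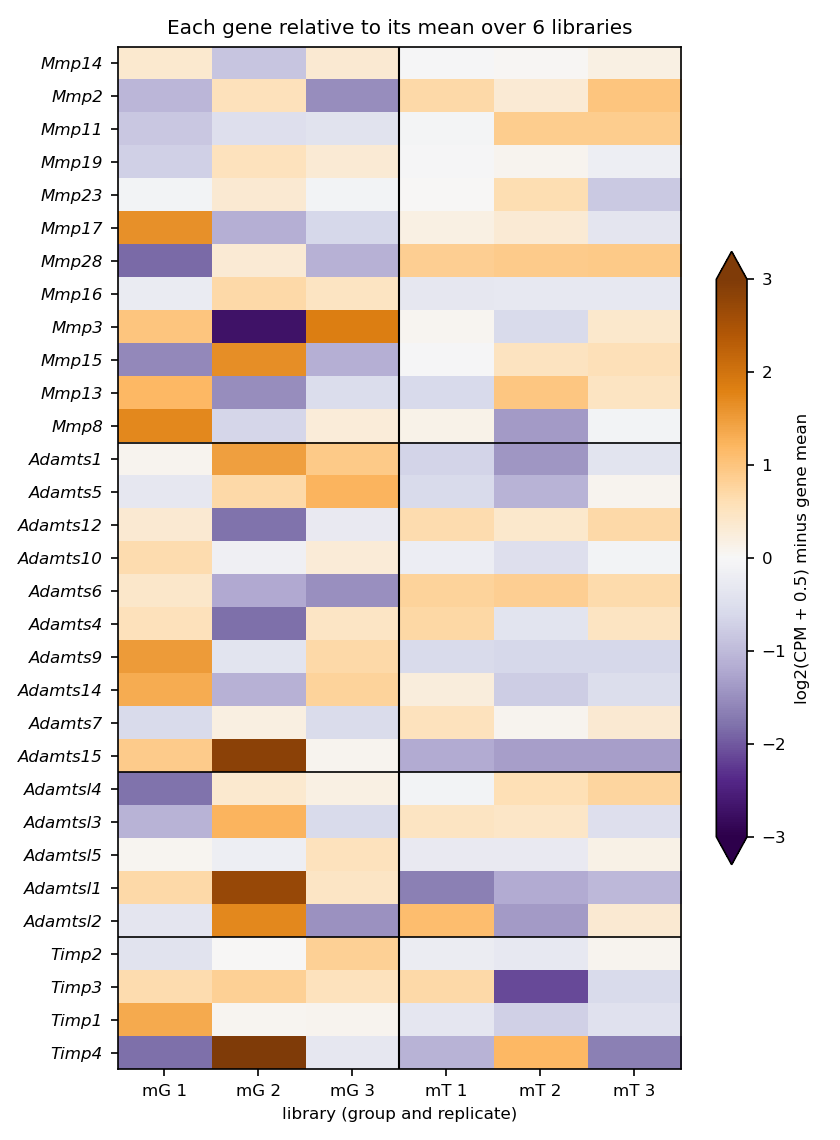
Heat map of the 31 tested genes (rows, by family and falling mean level) in the 3 mG and 3 mT libraries (columns), coloured by log2(CPM + 0.5) minus the gene's mean over the 6 libraries. Of the 31 rows, 10 have their highest value in mG replicate 2 and 8 in mG replicate 1.

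Of the 14 ADAMTS genes described here, Adamts1 had the highest level per kilobase in both groups. It was higher in every mG library than in any mT library. ADAMTS1 cuts versican and aggrecan. Adamts1 (chr16:85793827-85803113, GRCm38, − strand) had 753, 1963.4 and 1350.5 CPM in mG cells, against 443, 263 and 541 CPM in mT cells. The lowest mG library was above the highest mT library, and mG replicate 2 stood highest. Means were 1355.7 ± 605 CPM in mG and 416 ± 141 CPM in mT (SD, n = 3 each). The log2 fold change was 1.71 ± 0.43, or 3.26-fold, with an adjusted p of 0.152 (0.206 with the replicate block). DESeq2 gave an adjusted p of 0.00221 and the likelihood-ratio test 0.006. Without mG replicate 2 the log2 fold change was 1.32 (adjusted p = 0.134), and across fits that left out 1 library the adjusted p was 0.107 to 0.41.

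Adamts5 lies 53.1 kb from Adamts1 on chromosome 16 and encodes a major aggrecan- and versican-cleaving enzyme. It had 294, 590 and 864 CPM in mG cells, against 246, 173 and 387 CPM in mT cells. The groups overlapped, since mG replicate 1 was below mT replicate 3, while each mG library was above the mT library of its own number. For Adamts5 the log2 fold change was 1.12 ± 0.46 (adjusted p = 0.334). Adamts4, the other well-known aggrecanase, had 20.6, 3.6 and 19.4 CPM in mG and 23.4, 10.5 and 19.6 CPM in mT, with each mG library below its numbered counterpart (adjusted p = 0.905).

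Adamts9 and Adamts15, also proteoglycan-cleaving enzymes, were at low levels. Adamts9 (chromosome 6) had 14.8, 3.6 and 8.18 CPM in mG cells, against 3.14, 2.99 and 2.99 CPM in mT cells. The groups did not overlap, and the mT libraries were nearly equal. Its log2 fold change was 1.54 ± 0.51 (adjusted p = 0.25), and 1.91 with an adjusted p of 0.0477 without mG replicate 2. Without mG replicate 1 it was 0.95 (adjusted p = 0.359), and across the fits that left out 1 library the adjusted p was as high as 0.578. Adamts9 shares 1381 exon bases with the opposite-strand gene A730049H05Rik, which had 61, 1 and 16 counts in mG and 3, 0 and 0 counts in mT, and reads of that stretch cannot be assigned to either gene. Adamts15 (chr9:30899155-30922452, GRCm38, − strand) had 34, 181 and 14 counts in mG cells, against 1, 0 and 0 counts in mT cells. All mG libraries had Adamts15 counts and 1 mT library had a single count. The gene thus passed the filter on low counts through mG alone. Over the groups the ratio of mG to mT was 216, with an exact 95% counting interval of 38.4 to 8572, which covers counting error only. Most of the mG counts were in replicate 2, and the fitted log2 fold change, which rests on 1 mT count, was 7.20 with all libraries and 5.71 without mG replicate 2. The adjusted p was 0.0891, or 0.0659 with the replicate block, and 0.0489 without mG replicate 2, while without another single library it was as high as 0.334. DESeq2 gave 5.46e-05. Adamts20, of the same group, had 3, 0 and 1 counts in mG and 0 in every mT library, and Adamts8 had no row in the table used here.

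Adamts12 and Adamts6 were lower in every mG library than in any mT library. ADAMTS12 and ADAMTS7 cut the cartilage protein COMP. Adamts12 (chromosome 15) had 337, 76.5 and 218 CPM in mG cells, against 418, 347 and 426 CPM in mT cells. The gap between the groups was small at mG replicate 1 and wide at mG replicate 2, where summed cartilage markers were highest, with Comp at 741 CPM. The log2 fold change was −0.92 ± 0.49 (adjusted p = 0.457). Adamts7 had 2.67, 4.95 and 2.71 CPM in mG and 6.27, 4.54 and 5.45 CPM in mT, which overlapped (−0.65 ± 0.35, adjusted p = 0.464). ADAMTS6 and ADAMTS10 act on fibrillin microfibrils, and ADAMTS10 is mutated in the human Weill-Marchesani syndrome. Adamts6 (chromosome 13) had 30.8, 9.62 and 7.95 CPM in mG cells, against 40.1, 41.9 and 36.8 CPM in mT cells. Replicate 1 of mG lay nearest to the mT libraries. The log2 fold change was −1.30 ± 0.51 (adjusted p = 0.32), and −2.17 with an adjusted p of 0.0229 without mG replicate 1. Adamts10 (chromosome 17) had 105, 60.9 and 82.3 CPM in mG cells, against 58.6, 47.8 and 63.6 CPM in mT cells. Its direction was opposite to that of Adamts6, and the groups overlapped at mG replicate 2 (0.55 ± 0.23, adjusted p = 0.334). Of the summed level per kilobase of the 14 ADAMTS genes described here, Adamts12 alone made up 6.89% in mG and 23.9% in mT. Adamts1 made up 71.7% in mG and 49.2% in mT (means of 3 libraries).

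Adamts14 and Adamts3, which encode procollagen N-proteinases, were low. Adamts14 had 10, 1.45 and 6.77 CPM in mG and 4.5, 1.97 and 2.45 CPM in mT (log2 fold change 1.02 ± 0.70, adjusted p = 0.588). Its highest and lowest libraries were both mG. Adamts3 had 6, 11 and 4 counts in mG and 4, 0 and 1 in mT. Adamts17 had 1, 3 and 0 counts in mG and 2, 0 and 4 in mT. Adamts18 had 6, 17 and 2 counts in mG and 0, 2 and 0 in mT, a ratio of 11.8 with an exact 95% counting interval of 2.94 to 103. Adamts13, Adamts16 and Adamts19 had no row in the table used here.

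Among the ADAMTS-like genes, Adamtsl1 differed most between the groups. ADAMTSL1, or punctin, is a secreted matrix protein. Adamtsl1 (chromosome 4) had 7.24, 30.5 and 6 CPM in mG cells, against 1.01, 1.61 and 1.86 CPM in mT cells. Every mG library was above every mT library, with mG replicate 2 far above the others. The log2 fold change of 3.29 ± 0.73, or 9.77-fold, had an adjusted p of 0.12 (0.113 with the replicate block). It was 2.14 without mG replicate 2, with an adjusted p of 0.0476, and across the fits that left out 1 library the adjusted p was as high as 0.37. DESeq2 gave 5.9e-05. Adamtsl4, whose product binds fibrillin microfibrils and is mutated in human lens dislocation, had 35.1, 158 and 139 CPM in mG and 118, 188 and 209 CPM in mT. Each mG library was below its numbered mT library, though the groups overlapped (−0.63 ± 0.54, adjusted p = 0.691). Adamtsl3, or punctin 2, had 24.5, 124 and 35.3 CPM in mG and 74.3, 71 and 37.5 CPM in mT. With mG replicate 2 highest and the other mG libraries lowest, its log2 fold change of 0.01 ± 0.63 was near 0 (adjusted p = 0.997). Adamtsl5 had 59.6, 50.5 and 83.6 CPM in mG and 47.6, 47.4 and 63.8 CPM in mT, higher in each mG library than in its numbered counterpart, with overlap (0.29 ± 0.23, adjusted p = 0.653). Adamtsl2, whose product is mutated in human geleophysic dysplasia, had 1.47, 7.76 and 0.412 CPM in mG and 4.96, 0.478 and 2.69 CPM in mT (adjusted p = 0.961).

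**Figure D3:**
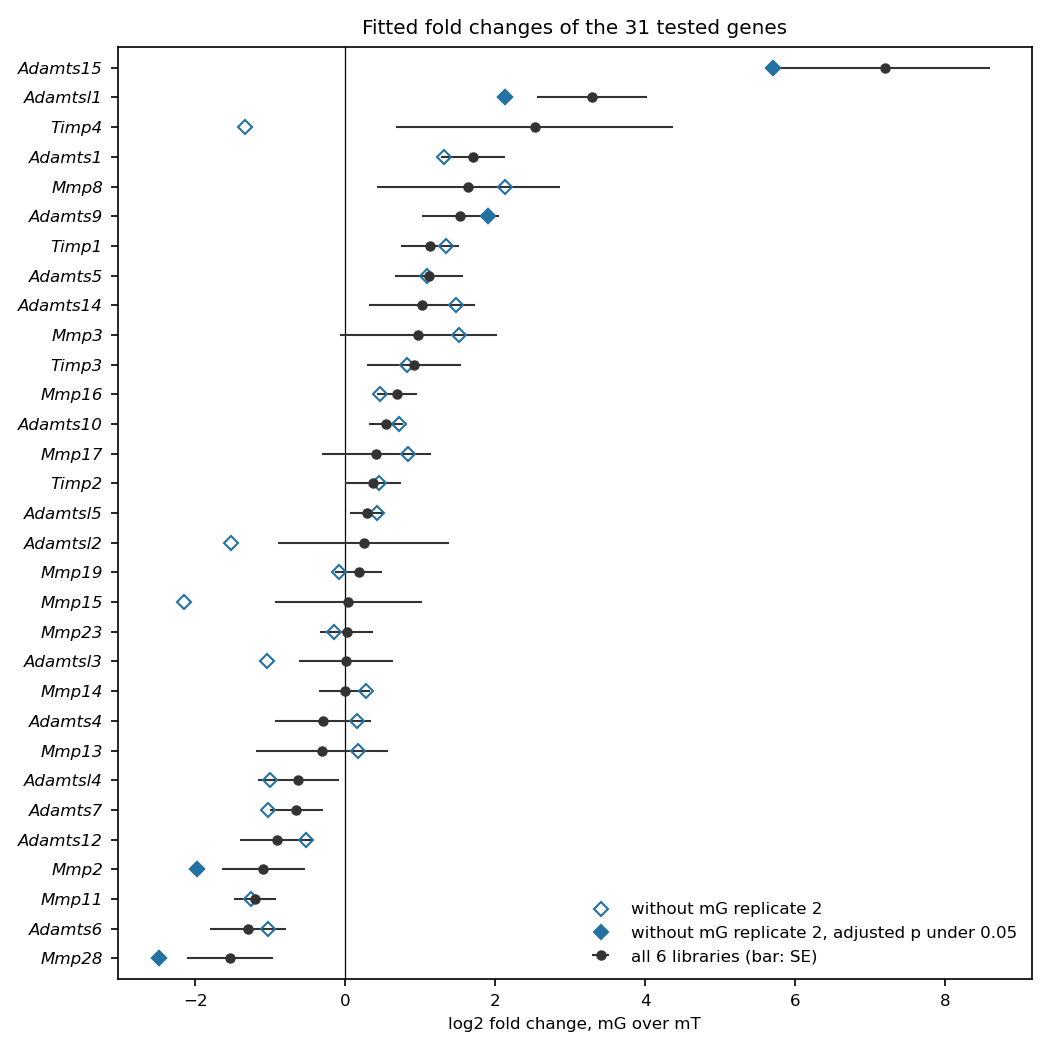
Fitted log2 fold change, mG over mT, of each of the 31 tested genes (black points with SE bars) and the same without mG replicate 2 (blue diamonds, filled where the adjusted p is under 0.05). Filled diamonds mark Adamts9, Adamts15, Adamtsl1, Mmp2 and Mmp28; the fitted Adamts15 value rests on 1 count in the mT group and is not a bound.

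All 4 TIMP genes had fitted log2 fold changes above 0, and none passed the test. Timp2, which inhibits MMPs and also links the MMP2 precursor to MT1-MMP for activation, was the most abundant. Timp2 (chromosome 11) had 1941, 2624.6 and 4584.8 CPM in mG cells, against 2237.4, 2106.8 and 2749.6 CPM in mT cells. The mG libraries spanned the mT libraries, with mG replicate 3 alone clearly above them (0.37 ± 0.37, adjusted p = 0.744). Without mG replicate 3 the log2 fold change was −0.05. Timp1 (chrX:20870166-20874735, GRCm38, + strand), an inhibitor often made on growth and inflammatory signals, had 923, 377 and 380 CPM in mG cells, against 284, 217 and 266 CPM in mT cells. The groups did not overlap, and mG replicate 1, the library with the highest summed proliferation and smooth muscle markers, was far above the rest. Means were 560 ± 314 CPM in mG and 256 ± 34.2 CPM in mT (SD, n = 3 each), with a log2 fold change of 1.13 ± 0.39 (adjusted p = 0.26). Without mG replicate 1 it was 0.57 (adjusted p = 0.223).

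Timp3 and Timp4 were less even. Timp3, which stays bound to the matrix, had 556, 629 and 510 CPM in mG cells, against 574, 81.9 and 238 CPM in mT cells. In this gene the spread was in the mT group, where replicate 1 reached the mG level (0.92 ± 0.63, adjusted p = 0.584). Without mT replicate 1 the Timp3 log2 fold change was 1.82, and it was 0.47 without mT replicate 2. Timp3 lies within Syn3 on the opposite strand and shares 1733 exon bases with it, but Syn3 had at most 7 counts in any library. Timp4 (chromosome 6, and likewise opposite to a synapsin gene, Syn2) had 2, 591 and 21 counts in mG and 10, 73 and 3 in mT, or 0.109, 27.6 and 1.24 CPM in mG and 0.506, 4.37 and 0.18 CPM in mT. Replicate 2 was the highest library in both groups, and mG replicate 2 held nearly all mG counts. Its log2 fold change of 2.53 ± 1.85 (adjusted p = 0.62) was −1.34 without mG replicate 2.

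Summed over the members of each family described here, levels per kilobase of the MMP genes were lower in every mG library than in any mT library. Those of the ADAMTS and TIMP genes were higher. The 17 MMP genes summed to 286, 321 and 269 CPM per kilobase in mG replicates 1 to 3, against 394, 379 and 468 in mT. The 14 ADAMTS genes described here summed to 225, 444 and 372 CPM per kilobase in mG, against 164, 112 and 195 in mT. The TIMP genes summed to 1605, 1180 and 1667 CPM per kilobase in mG, against 964, 796 and 1034 in mT. Within each of these families the groups did not overlap. The ADAMTS-like genes, at 24.9, 67.8 and 55.9 CPM per kilobase in mG and 48.4, 64.1 and 68.6 in mT, did overlap. The ratio of summed TIMP to summed MMP level per kilobase was 5.62, 3.67 and 6.19 in mG, against 2.45, 2.10 and 2.21 in mT. Few genes lead each sum (Mmp14 and Mmp2, Adamts1, Timp2 and Timp1). Leaving Mmp2 out of the MMP sum, Adamts1 out of the ADAMTS sum or Timp1 out of the TIMP sum makes the groups overlap. Of the tested MMP genes, 7 of 12 had log2 fold changes above 0. The lower MMP sum in mG is therefore not a shift shared by the family. The sums are descriptions without a test, and RNA levels do not measure free enzyme or inhibitor. In CPM, before division by length, the family means were 1305 ± 59.5 in mG and 1709 ± 185 in mT for MMPs, 2285.4 ± 624 in mG and 1207 ± 298 in mT for ADAMTS, and 4184 ± 1125 in mG and 2919.8 ± 448 in mT for TIMPs (SD, n = 3 each).

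**Figure D4:**
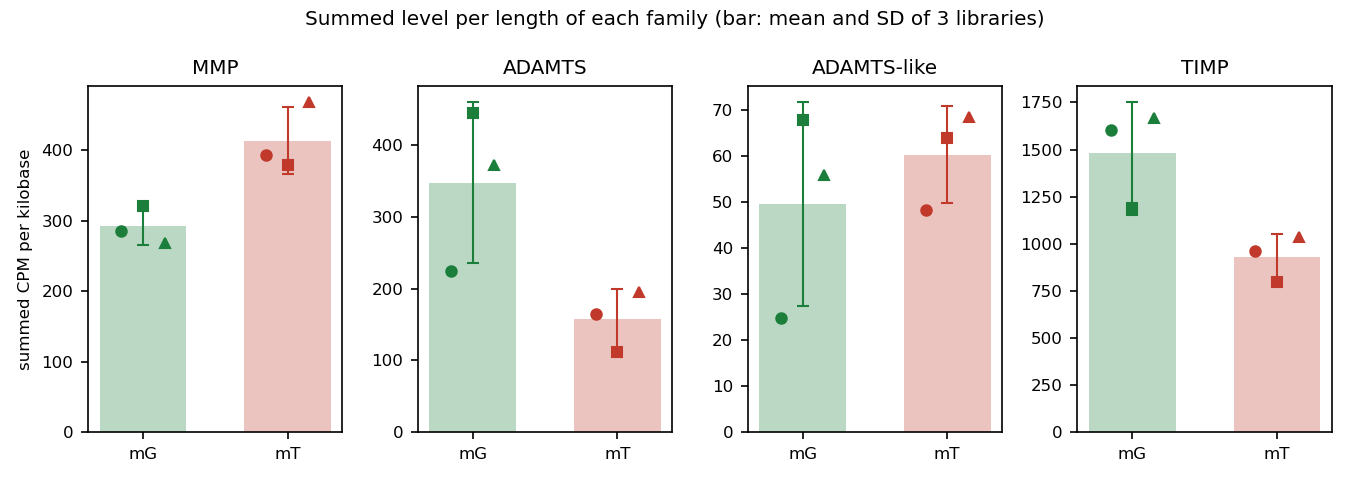
Summed CPM per kilobase of exon over the members of each family described here, with bars for the mean, whiskers for the SD and a marker per library, mG left and mT right. TIMP genes sum to 1180 to 1667 in mG and 796 to 1034 in mT, ADAMTS genes to 225 to 444 in mG and 112 to 195 in mT, and MMP genes to 269 to 321 in mG and 379 to 468 in mT.

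Levels per length depend on the length used. The lengths listed by the authors equal the sum of the exon records over all transcripts of a gene in GENCODE M21 (plus 1 base per record) for 40 of 40 members, so exons shared by several transcripts count repeatedly. The listed length was 1.00 to 5.16 times the length of the merged exons, with Adamts10 at 42627 bases the extreme. The values above use merged exons. With the authors' deposited RPKM values, the mean share of Timp1 in the TIMP sum was 31.1% in mG and 20.8% in mT, against 42.1% in mG and 30.9% in mT with merged exons, and the share of Adamts10 in the ADAMTS sum was 0.922% in mG and 1.21% in mT, against 3.34% in mG and 4.49% in mT. The length of a gene does not touch its comparison between groups.

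In the authors' deposited table, 5 of the 40 members had an adjusted p under 0.05, beside 6.05% of all 20645 rows. The authors' deposited table gives Adamts15 a log2 fold change of 7.19 (adjusted p = 1.33e-07), Adamtsl1 3.28 (0.000145), Mmp27 5.70 (0.000623), Adamts1 1.70 (0.0136) and Adamts18 3.26 (0.0153). All 5 are higher in mG there. Mmp27 and Adamts18 were below the count filter of the test used here. With no filter, edgeR's quasi-likelihood test gave adjusted p-values of 0.194 for Mmp27 and 0.37 for Adamts18, and DESeq2 gave 0.0762 for Mmp27 and 0.288 for Adamts18. Mmp11 had an adjusted p of 0.063 in the authors' deposited table.

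Genes that work with these enzymes were looked at from lists of activators, other inhibitors and clearance receptors (11 of 13 with a row, all tested), of related ADAM proteases (10 tested) and of substrates (14 tested of 15). None of the 35 passed edgeR's quasi-likelihood test, with or without the block. The smallest adjusted p among the activators was that of Pcsk6, a furin-like protease, which had 39.9, 226 and 50.7 CPM in mG cells, against 611, 1087.9 and 856 CPM in mT cells. Every mG library was below every mT library (−3.01 ± 0.73, adjusted p = 0.139, or 0.0632 with the block). Furin itself had 147, 110 and 131 CPM in mG and 151, 146 and 151 CPM in mT (adjusted p = 0.609). Sdc4, a cell-surface proteoglycan, had 521, 272 and 512 CPM in mG and 186, 160 and 250 CPM in mT, all mG libraries being higher (1.13 ± 0.31, adjusted p = 0.173). Among the ADAM genes Adam33 had 2.29, 0.28 and 5.65 CPM in mG and 20.4, 43.7 and 9.58 CPM in mT (−3.17 ± 1.01, adjusted p = 0.235). Adam22, next in that list, had an adjusted p of 0.42. Of the substrates, Fbn2, a microfibril fibrillin, had 2.61, 0.0467 and 0.647 CPM in mG and 24.3, 25.9 and 130 CPM in mT (−5.78 ± 1.25, adjusted p = 0.113). Fn1, or fibronectin, was higher in every mG library, with 9302.2, 10474.8 and 14599.6 CPM in mG and 6561.6, 2543.1 and 4541.2 CPM in mT (1.33 ± 0.46, adjusted p = 0.262). Versican RNA (Vcan), the substrate of ADAMTS1, ADAMTS5 and ADAMTS9, had 100, 39.2 and 79.8 CPM in mG and 130, 37.7 and 45.5 CPM in mT, which overlapped (0.04 ± 0.55, adjusted p = 0.987).

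The members varied most among the mG libraries. Replicate 2 of mG was the highest or the lowest of the 3 mG libraries for 27 of 31 tested members (87.1%), beside 75.5% of all tested genes. It was the highest of all 6 libraries for 10 members (32.3%), beside 24.7% of all tested genes: Adamts1, Adamts15, Adamtsl1, Adamtsl2, Adamtsl3, Mmp15, Mmp16, Mmp19, Timp3 and Timp4. It was the lowest of all 6 for 7 members: Adamts4, Adamts12, Adamts14, Mmp3, Mmp13, Mmp14 and Mmp17. Replicate 1 of mG was the highest for 8 members, with Timp1, Adamts9, Adamts10 and Mmp14 among them. Summed cartilage markers were highest in mG replicate 2, where summed smooth muscle markers were lowest, and summed proliferation and smooth muscle markers were highest in mG replicate 1. The part of any of these in the members' values was not tested.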

How the data were processed

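RNA of 3 mG and 3 mT libraries was sequenced after unstranded library production, per the labels' protocols. Per the submitters' processing notes, the tools were edgeR 4.0, STAR, Trimmomatic 0.38, cutadapt 5.0 and FastQC 0.11.9; which build, annotation and counter were used is not given in the sources used here. The authors deposited 1 table with, per the file headers, whole-number counts per gene and library. All rows hold a count in 2 or more libraries. The deposited RPKM values are scaled by the listed gene length (in bases, per the file headers) and depth, and the columns named TMM hold a deposited signal made by scaling counts to nearly equal totals. Log2 fold changes and mean log2 levels by the authors, the size of the fold change and the likelihood-ratio score, and their p-value, its adjustment and its −log10 are further deposited columns. The table's name mentions upper-quartile scaling and removal of unwanted variation. They are used here only where the text names the authors' table, and the RPKM values only for shares by listed length. The 36 rows that have an Ensembl identifier but no gene symbol were kept and took up 0.013% to 0.0352% of counts.

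The test on counts used R 4.3.3 and edgeR 4.0.16 (glmQLFit, glmQLFTest; TMM factors of 0.926 to 1.134; filterByExpr with a minimum count of 10; Benjamini-Hochberg adjustment over 13566 genes, threshold 0.05), after a check on simulated counts. CPM use TMM-scaled totals. Across genes, which are not independent replicates, Pearson correlations of log2 CPM were 0.903 to 0.976 within groups and 0.881 to 0.934 between groups. Intervals and the floor of 3 counts cover counting error only. Merged exon lengths, coordinates and opposite-strand genes come from GENCODE M21 (GRCm38), whose exon number equals the listed one for 40 of 40 members, and promoters, held for 28 members, from RefSeq.

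The members, gene lists and marker lists were chosen with earlier results of these data known. 1 ADAMTS gene is not reported here. Values in all 6 libraries are due for called members, TIMP genes, members with a mean of at least 20 CPM and the 6 members with the smallest adjusted p, and for the 2 partners per list with the smallest adjusted p; other members and partners with such values were added after their values were seen. Deviations from group means of same-numbered mG and mT libraries correlated at 0.24, 0.18 and 0.3, other pairs at −0.18 to −0.05. By the rule that every same-number correlation exceeds 0.1, libraries of 1 number are taken as pairs. The labels themselves give these numbers no meaning, so the pairing rests on the data. The main fit has no block and so does not use the pairs, which enter only the alternative fit with the replicate block. Alternatives were RLE and upper-quartile normalization, no filter, a minimum of 1 CPM in 3 libraries, DESeq2 1.42.0, the replicate block and each library left out. Merged exon lengths, leaving out both replicate 2 libraries and a likelihood-ratio test were chosen after seeing the data. As the main values are counts, pseudocount alternatives were not needed.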

Additional observations from a re-analysis of the deposited data

How the results depend on the processing

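The number of genes called was 123, against 766 with the likelihood-ratio test, 960 with DESeq2, 46 with both replicate 2 libraries left out and 20 to 362 with 1 library left out. The number of members called was 0, against 4 with the likelihood-ratio test (3 higher and 1 lower in mG), 4 with DESeq2 (3 higher and 1 lower) and 0 to 5 with 1 library left out (0 to 3 higher, 0 to 2 lower). The replicate block gave 108 genes and changed no call of a member. Under the block the log2 fold change turned for Adamtsl2 (−0.54), Adamtsl3 (−0.28), Mmp15 (−0.94) and Mmp17 (−0.10). Other turned directions were those of Adamtsl3 with DESeq2 (−0.001) and Mmp14 with RLE normalization (0.002), and, with both replicate 2 libraries left out, of Adamtsl2 (−2.02), Adamtsl3 (−0.92), Mmp13 (0.62), Mmp14 (0.26), Mmp15 (−2.07) and Mmp19 (−0.022). With 1 library left out, 11 of the 31 tested members turned in at least 1 fit; log2 fold changes ran from −0.64 to 0.15 for Adamts4, −1.52 to 1.02 for Adamtsl2, −2.15 to 0.54 for Mmp15, −1.69 to 0.17 for Mmp13, −1.04 to 0.39 for Adamtsl3, −0.19 to 0.28 for Mmp14, −0.08 to 0.47 for Mmp19, −0.27 to 0.41 for Mmp23, −0.96 to 0.84 for Mmp17, −0.05 to 0.61 for Timp2 and −1.34 to 4.76 for Timp4. Beyond leaving out libraries, which lowers the number of samples, the cause of these shifts was not tested. Of the values of all tested members under alternatives, 388 kept direction and side of the threshold, 14 newly passed and 29 turned. The median log2 fold change of all genes was 0.02 with TMM, 0.03 with RLE and 0.02 with upper-quartile normalization, and family sums moved by less than 1 SD. For genes such as Mmp9, Mmp24 and Adamts17, depth limits any comparison.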
